A study of Mus musculus with 8 samples.

Results

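The transforming growth factor beta (TGF-beta) signalling core was examined in memory phenotype CD8 T cells, as 10 genes: the ligand gene Tgfb1, the receptor genes Tgfbr1 and Tgfbr2, Smad2, Smad3, Smad4, Smad7, the co-repressor genes Ski and Skil, and the feedback gene Pmepa1. They were chosen by symbol, and all 10 were among the 13245 genes of the deposited table. The cells were mouse lymph node CD8 T cells sorted for Ly6C and CXCR3 on their surface, in 2 groups of 4 libraries: C57BL/6 (B6) mice, and CD103Tg mice, which overexpress CD103. The promoter that drives the transgene, the age of the mice and whether each library came from its own animal are not given in the sources used here, and p-values then speak only of the spread among these 8 libraries, which may be technical. Per the labels' protocols, libraries were made with SMART-Seq v4 and Nextera XT, which amplify full-length cDNA from very little RNA and do not mark the strand.

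TGF-beta is released from a latent form and binds the type II receptor (Tgfbr2), which recruits and phosphorylates the type I receptor (Tgfbr1). The type I receptor phosphorylates Smad2 and Smad3, which join Smad4 and act on genes in the nucleus, while Smad7, Ski, Skil and Pmepa1 limit the signal. In CD8 T cells the pathway is known for restraining effector genes and for inducing CD103 (integrin alpha E, gene Itgae) in tissue-resident cells.

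Itgae, the gene of the transgene product, stood at 41.4, 51.4, 37.5 and 174 CPM in B6 replicates 1 to 4 and at 3469, 4692, 4169 and 5509 CPM in CD103Tg replicates 1 to 4. The values are CPM, read counts relative to a library size scaled by TMM, a normalization that aligns libraries on their bulk of genes. The level of Cd247, the CD3 zeta chain gene, was also far apart, at 303, 285, 315 and 478 CPM in B6 and at 8341, 8462, 10164 and 7877 CPM in CD103Tg. Differences between the groups therefore cannot be told apart from effects of Cd247 or of other features of these mice and libraries. B6 replicate 4 stood apart from the other B6 libraries in both genes, and without it the same numbers of the 10 genes below were called, 3 higher and 2 lower. Since the transgene encodes the Itgae product, Itgae was left out of the lists of TGF-beta response genes.

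The sequences shown are the start regions of the member that differed most, Smad3, and of the receptor gene that fell, Tgfbr2. They run from 250 bases before to 50 bases after the gene's start in the RefSeq table of build GRCm38.p6. Such windows were read for 5 of the 10 genes. None was found for Skil and Pmepa1, and whether that table holds windows of Smad2, Smad4 and Smad7 was not tested. Smad3 and Tgfbr2 lie on the minus strand of chromosome 9, the Smad3 window at chr9:63757945-63758244 and the Tgfbr2 window at chr9:116175314-116175613. Capitals mark the Smad box CAGAC on either strand.
Smad3: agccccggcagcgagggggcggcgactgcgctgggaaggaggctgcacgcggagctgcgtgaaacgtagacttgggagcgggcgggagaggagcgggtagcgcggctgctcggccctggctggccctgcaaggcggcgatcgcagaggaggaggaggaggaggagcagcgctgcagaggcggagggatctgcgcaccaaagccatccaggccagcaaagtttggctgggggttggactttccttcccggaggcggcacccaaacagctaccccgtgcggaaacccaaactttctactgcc
Tgfbr2: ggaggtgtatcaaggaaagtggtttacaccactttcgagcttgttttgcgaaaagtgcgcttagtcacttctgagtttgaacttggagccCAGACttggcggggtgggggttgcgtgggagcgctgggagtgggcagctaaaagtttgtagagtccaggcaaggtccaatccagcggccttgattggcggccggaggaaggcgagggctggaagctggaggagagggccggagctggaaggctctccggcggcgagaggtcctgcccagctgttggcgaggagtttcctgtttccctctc
CAGAC occurred 1 time in the Tgfbr2 window, starting 160 bases before the start site, and not in the Smad3 window. It occurs on either strand in 49.6% of 32851 such windows. Neither window held the palindromic Smad element GTCTAGAC (in 0.213% of windows), an AP-1 site TGANTCA (7.81%) or a Runx site TGTGGT (16.8%), and none of these motifs contains CAGAC. The Smad3 window was 67.7% G and C and the Tgfbr2 window 59%, against a median of 52.7% over all windows.

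Of the 10 genes, 3 were higher in CD103Tg (Smad3, Pmepa1 and Ski), 2 were lower (Tgfbr2 and Smad4) and 5 did not pass the test (limma on log2(CPM + 1), Benjamini-Hochberg over 11503 genes, threshold 0.05). Over all genes tested 31.2% passed, 17.4% higher and 13.8% lower, so 5 of 10 stands above that share on few genes. The median log2 fold change of the 10 was -0.05, against -0.01 for all genes tested. The groups did not overlap in the same 5 genes, where 31.0% of all genes tested had groups apart, 17.4% with CD103Tg higher and 13.6% with CD103Tg lower. The 10 genes had between 1261 and 27212 estimated reads per library.

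**Figure D1:**
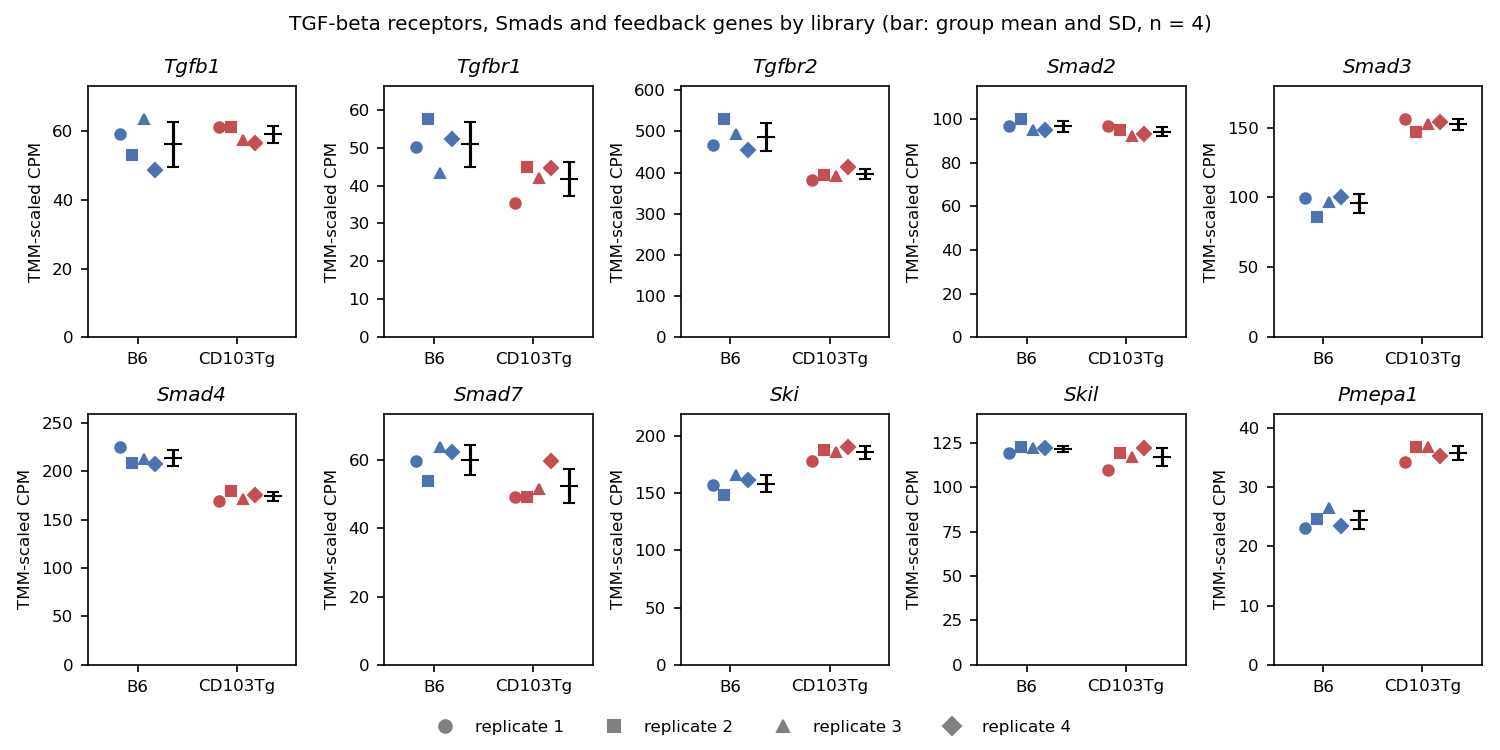
Level of each of the 10 genes in every library, as TMM-scaled CPM from 0, with 1 point per library (shape for the replicate number, colour for the group) and a bar for the group mean and SD (n = 4). Smad3, Pmepa1 and Ski lie higher and Tgfbr2 and Smad4 lower in all 4 CD103Tg libraries than in any B6 library, and the other 5 genes overlap.

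Tgfb1 (GRCm38 chromosome 7, 25687002 to 25705077) encodes the TGF-beta 1 ligand, which T cells make themselves. Its level was 59.1, 53.3, 63.7 and 48.8 CPM in B6 and 61.4, 61.3, 57.6 and 56.6 CPM in CD103Tg. The CD103Tg values lay inside the B6 range. On the log2 scale the difference was 0.08 ± 0.08 (SE) and did not pass (limma adjusted p = 0.492), with an unadjusted 95% interval of -0.10 to 0.25. The B6 libraries were the more uneven, with a coefficient of variation of 11.6% against 4.18% in CD103Tg.

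Tgfbr2 (chromosome 9, 116084293 to 116175360) encodes the ligand-binding type II receptor. It was at 466, 531, 493 and 456 CPM in B6 and at 383, 395, 393 and 414 CPM in CD103Tg. The highest CD103Tg library was below the lowest B6 library. Tgfbr2 fell by 0.29 ± 0.06 (SE) on the log2 scale (limma adjusted p = 0.00274), from a mean of 486 ± 33.3 to 396 ± 13.0 CPM (SD, n = 4). Tgfbr1 (chromosome 4, 47353222 to 47414931) encodes the type I receptor kinase that phosphorylates the Smads. It was at 50.1, 57.6, 43.4 and 52.3 CPM in B6 and at 35.3, 45.0, 42.0 and 44.7 CPM in CD103Tg. The lowest B6 library, replicate 3, fell among the CD103Tg values. The log2 fold change of Tgfbr1 was -0.28 ± 0.10, close in size to that of Tgfbr2, and it did not pass (adjusted p = 0.0508). It passed as lower without B6 replicate 3 (adjusted p = 0.0195) and without CD103Tg replicate 4 (0.0467), and over all 20 alternatives its adjusted p ranged from 0.0195 to 0.139.

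The CPM ratio of Tgfbr1 to Tgfbr2 within a library does not depend on how libraries are scaled. It was 0.107, 0.109, 0.0880 and 0.115 in B6 and 0.0923, 0.114, 0.107 and 0.108 in CD103Tg. The groups overlapped throughout, with means of 0.105 ± 0.0116 and 0.105 ± 0.00916 (SD, n = 4 each).

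Smad3 (chromosome 9, 63646767 to 63757994) encodes a receptor-regulated Smad that binds DNA itself, and it showed the largest difference of the 10 genes in either direction. Its level was 99.5, 86.1, 97.0 and 100 CPM in B6 and 156, 147, 152 and 154 CPM in CD103Tg. All CD103Tg libraries stood far above all B6 libraries, with little spread in either group. The mean went from 95.7 ± 6.51 to 152 ± 4.13 CPM (SD, n = 4), 59.2% higher, a rise of 0.67 ± 0.06 (SE) on the log2 scale (limma adjusted p = 1.03e-05). It ranked 165 by p among the 11503 genes, and 9.37% of all genes tested had a log2 fold change at least as large in either direction.

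Smad2, on chromosome 18 (76241580 to 76310963), encodes the other receptor-regulated Smad of the TGF-beta branch. It was at 96.9, 100.1, 94.9 and 94.8 CPM in B6 and at 96.8, 95.1, 92.1 and 93.0 CPM in CD103Tg. The groups overlapped and each varied by under 3% (coefficients of variation of 2.56% and 2.27%). Its log2 fold change was -0.04 ± 0.05 (adjusted p = 0.598), with an unadjusted 95% interval of -0.14 to 0.07, which does not include the difference seen for Smad3. The Smad3 to Smad2 ratio was 1.03, 0.860, 1.02 and 1.05 in B6 and 1.61, 1.54, 1.65 and 1.66 in CD103Tg. The ratio was thus 1.63-fold higher in CD103Tg, from a mean of 0.991 ± 0.0886 to 1.62 ± 0.0536 (SD, n = 4), with no overlap.

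Smad4 (chromosome 18, 73639009 to 73703780) encodes the common partner that both receptor-regulated Smads need for most of their target genes. It was at 225, 209, 213 and 207 CPM in B6 and at 169, 179, 171 and 175 CPM in CD103Tg. It fell in every CD103Tg library relative to every B6 library, by 0.29 ± 0.05 (SE) on the log2 scale (limma adjusted p = 0.000743). Smad3 and Smad4 therefore moved in opposite directions. Their ratio was 0.441, 0.413, 0.456 and 0.483 in B6 and 0.922, 0.818, 0.888 and 0.878 in CD103Tg. The mean ratio of Smad3 to Smad4 was 1.96-fold higher in CD103Tg, and the groups lay far apart.

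**Figure D2:**
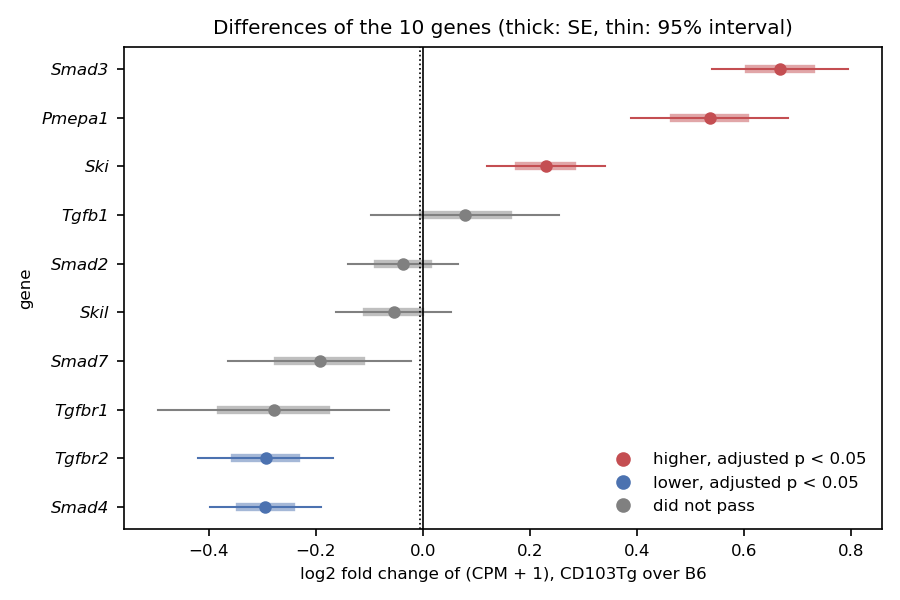
Log2 fold change of (CPM + 1) of each gene, CD103Tg over B6, on the horizontal axis, with the SE as a thick line and the unadjusted 95% interval as a thin line, and genes ordered by value on the vertical axis. Smad3, Pmepa1 and Ski lie to the right of 0, Smad4 and Tgfbr2 to the left, and the dotted line is the median of all genes tested.

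Smad7 (chromosome 18, 75367529 to 75395935) encodes the inhibitory Smad, which blocks the type I receptor and is itself a well-known target of the pathway. It was at 59.8, 54.0, 64.0 and 62.5 CPM in B6 and at 49.2, 49.3, 51.6 and 59.9 CPM in CD103Tg. CD103Tg replicate 4 lay within the B6 range and the other CD103Tg libraries below it. The log2 fold change was -0.19 ± 0.08 and did not pass (limma adjusted p = 0.0845). It passed as lower without CD103Tg replicate 4 (adjusted p = 0.0179) and without B6 replicate 2 (0.0455), and its adjusted p over the 20 alternatives ranged from 0.0179 to 0.199. The ratio of Smad7 to Smad3 was 0.601, 0.627, 0.660 and 0.625 in B6 and 0.315, 0.336, 0.339 and 0.389 in CD103Tg. Relative to Smad3, Smad7 was thus lower in every CD103Tg library, by a factor of 0.549 between the means.

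Ski (chromosome 4, 155154075 to 155222592) and Skil (chromosome 3, 31095058 to 31122577) encode related nuclear proteins that bind Smads and recruit co-repressors. Ski was at 157, 149, 165 and 161 CPM in B6 and at 178, 188, 186 and 191 CPM in CD103Tg. It rose by 0.23 ± 0.05 on the log2 scale (limma adjusted p = 0.00515), with no overlap between groups. Skil, which like Smad7 is known as a rapidly induced target, was at 119, 123, 122 and 122 CPM in B6 and at 110, 119, 117 and 122 CPM in CD103Tg. Its groups overlapped, and its log2 fold change was -0.05 ± 0.05 (adjusted p = 0.438; unadjusted 95% interval -0.16 to 0.05). The ratio of Skil to Ski was 0.758, 0.826, 0.736 and 0.755 in B6 and 0.616, 0.635, 0.631 and 0.639 in CD103Tg. The paralogues thus shifted against each other in every library, by a factor of 0.819 between the means.

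Pmepa1 (chromosome 2, 173224458 to 173276533) encodes a membrane protein induced by TGF-beta that keeps Smad2 and Smad3 from the receptor. It was at 23.1, 24.6, 26.5 and 23.4 CPM in B6 and at 34.3, 36.9, 36.7 and 35.3 CPM in CD103Tg. Each CD103Tg library was above every B6 library. Pmepa1 rose by 0.54 ± 0.07 (SE) on the log2 scale (limma adjusted p = 0.000124), from 24.4 ± 1.54 to 35.8 ± 1.22 CPM (SD, n = 4). The 3 feedback genes known as direct targets thus had unlike values: Pmepa1 rose, while Smad7 and Skil had values of -0.19 and -0.05 and did not pass. The 5 calls among the 10 genes stood under all 20 alternatives.

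**Figure D3:**
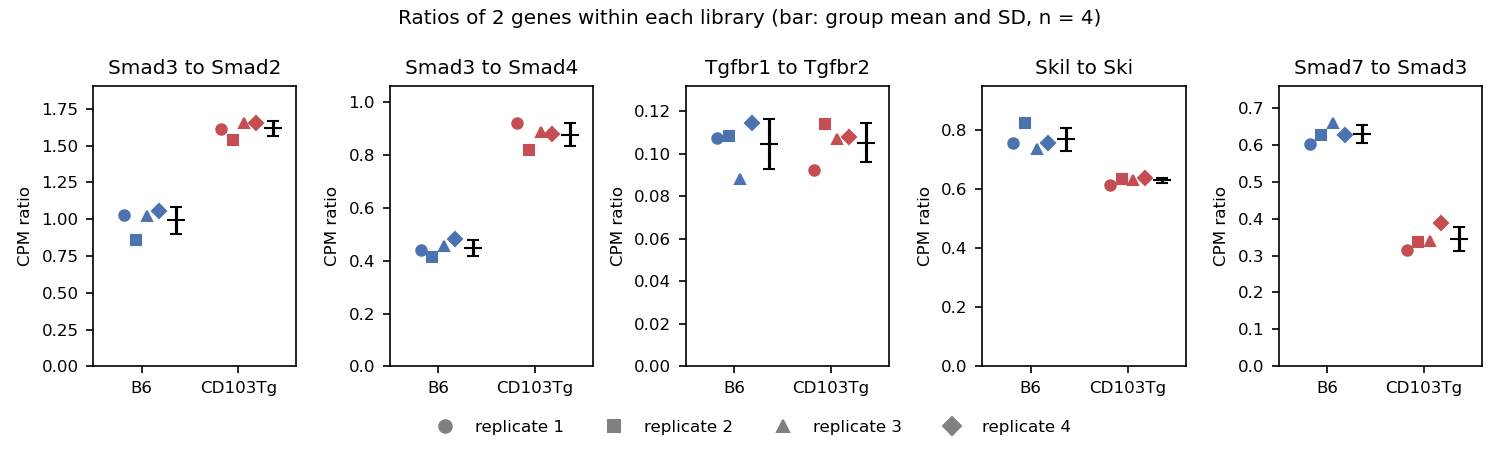
Ratios of CPM values of 2 genes within each library, on an axis from 0, with 1 point per library and a bar for the group mean and SD (n = 4). The Smad3 to Smad2 and Smad3 to Smad4 ratios are higher and the Skil to Ski and Smad7 to Smad3 ratios lower in every CD103Tg library, and the Tgfbr1 to Tgfbr2 ratio overlaps.

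Levels were compared between genes as CPM per kilobase of merged exons in GENCODE M21, a length that can differ from the one used in the authors' quantification. In B6, Tgfbr2 (59.4 ± 4.07 CPM per kilobase) and Smad4 (57.5 ± 2.24) were the highest and overlapped each other. Ski (28.4 ± 1.29) and Smad3 (17.3 ± 1.17) followed, each apart from its neighbours. Smad7, Skil, Tgfb1 and Smad2 came next, from 13.3 ± 0.974 CPM per kilobase for Smad7 downwards, and each overlapped its neighbour in the order. Tgfbr1 (7.78 ± 0.904) and Pmepa1 (4.97 ± 0.313) were the lowest. On this scale the type II receptor transcript was far more abundant than the type I receptor transcript in both groups. In CD103Tg the first 4 places were unchanged, with Smad3 at 27.5 ± 0.746 CPM per kilobase, and Pmepa1 (7.29 ± 0.248) stood above Tgfbr1 (6.39 ± 0.686).

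Other genes of the pathway were taken from 6 lists of 83 genes in all, of which 55 table entries were tested (Hgs has 2 entries). Of these 55, 11 rose, 13 fell and 31 did not pass, with a median log2 fold change of -0.03. The called share of 43.6% compares with 31.2% over all genes tested. Without CD103Tg replicate 3, 7 rose and 8 fell. These lists, like the 10 genes, were drawn up with earlier results of these data known.

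Of 22 listed genes for ligands and ligand activation, 6 were in the deposited table and 5 were tested. Of these 5, 4 rose, and the integrin gene Itgav was at -0.26 ± 0.10 and did not pass (limma adjusted p = 0.0602). Bmp7, a bone morphogenetic protein gene, was low in both groups and rose from 1.75 ± 0.559 to 6.18 ± 1.35 CPM (log2 fold change 1.38 ± 0.17). Furin, the protease that cleaves the TGF-beta precursor, rose by 0.40 ± 0.07, from 39.5 ± 3.38 to 52.5 ± 1.99 CPM. Nrros, which tethers latent TGF-beta 1, rose by 0.25 ± 0.06. Gdf11 rose by 0.45 ± 0.13, but not without B6 replicate 2, CD103Tg replicate 2 or CD103Tg replicate 3 (limma adjusted p = 0.0552, 0.0568 and 0.067).

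The other receptors of the family were expressed at low levels, and all 5 tested passed. The activin receptor gene Acvr2a rose from 4.36 ± 0.690 to 9.09 ± 1.23 CPM. The co-receptor gene Tgfbr3 (betaglycan) was the other that rose (0.43 ± 0.15, limma adjusted p = 0.0468), and it was not followed through the alternatives. The co-receptor gene Eng (endoglin) fell by 1.17 ± 0.29, Acvr1b by 0.42 ± 0.10 and Bmpr1a by 0.62 ± 0.17 on the log2 scale. In Tgfbr3 and Eng the groups overlapped. Bmpr1a lost its call without CD103Tg replicate 3 (limma adjusted p = 0.0569) and without both libraries numbered 4 (0.0525).

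Of 7 tested entries for other Smads and Smad adaptors, 1 fell and 6 did not pass. The one that fell was Smad5, a Smad of the bone morphogenetic protein branch (-0.25 ± 0.08, limma adjusted p = 0.0449), and its call was lost on leaving out any 1 library except CD103Tg replicate 4 (adjusted p = 0.0662 to 0.125) and with no filter on low values (0.0502). Fkbp1a, whose product holds the type I receptor inactive, was at -0.12 ± 0.05, Zfyve16 at -0.14 ± 0.08 and the adaptor gene Strap at -0.07 ± 0.06, and none of these passed. Fkbp1a passed as lower without B6 replicate 4 (adjusted p = 0.047) and with quantile normalization (0.027) or equal totals (0.0211).

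Of 15 genes in the list of ubiquitin ligases, deubiquitinases and phosphatases, 4 rose, 2 fell and 9 did not pass. Ldlrad4 was in this list but encodes none of these enzymes. It is a relative of Pmepa1 that also restrains Smad activation, and it rose from 15.6 ± 2.64 to 23.1 ± 1.97 CPM. The ligase genes Wwp1 (0.39 ± 0.08), Smurf2 (0.30 ± 0.07) and Wwp2 (0.20 ± 0.05) rose as well, and their products are known to mark receptors or Smads for degradation. Wwp2 lost its call by a narrow margin without CD103Tg replicate 3 (limma adjusted p = 0.05005). The 2 that fell are also ubiquitin ligase genes, Itch (-0.23 ± 0.06) and Trim33 (-0.27 ± 0.07). The Trim33 product is known to act on Smad4.

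Of 13 nuclear partners and co-repressors, 1 rose, 5 fell and 7 did not pass. Runx1, which encodes a Smad-binding transcription factor, fell from 28.4 ± 4.39 to 16.6 ± 1.03 CPM. The coactivator gene Crebbp fell by 0.40 ± 0.06, Sp1 by 0.39 ± 0.06 and the co-repressor gene Tgif1 by 0.43 ± 0.10. Of 10 genes of the branch that does not use Smads, 2 fell and 8 did not pass. The kinase gene Mapk8 (JNK1) fell by 0.46 ± 0.12. Rhoa fell by 0.27 ± 0.09, but lost its call without B6 replicate 1 or 3 or without CD103Tg replicate 2, 3 or 4 (limma adjusted p = 0.0592 to 0.0993). Tab3 and Tab1 were at -0.17 ± 0.10 and -0.14 ± 0.11 and did not pass.

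**Figure D4:**
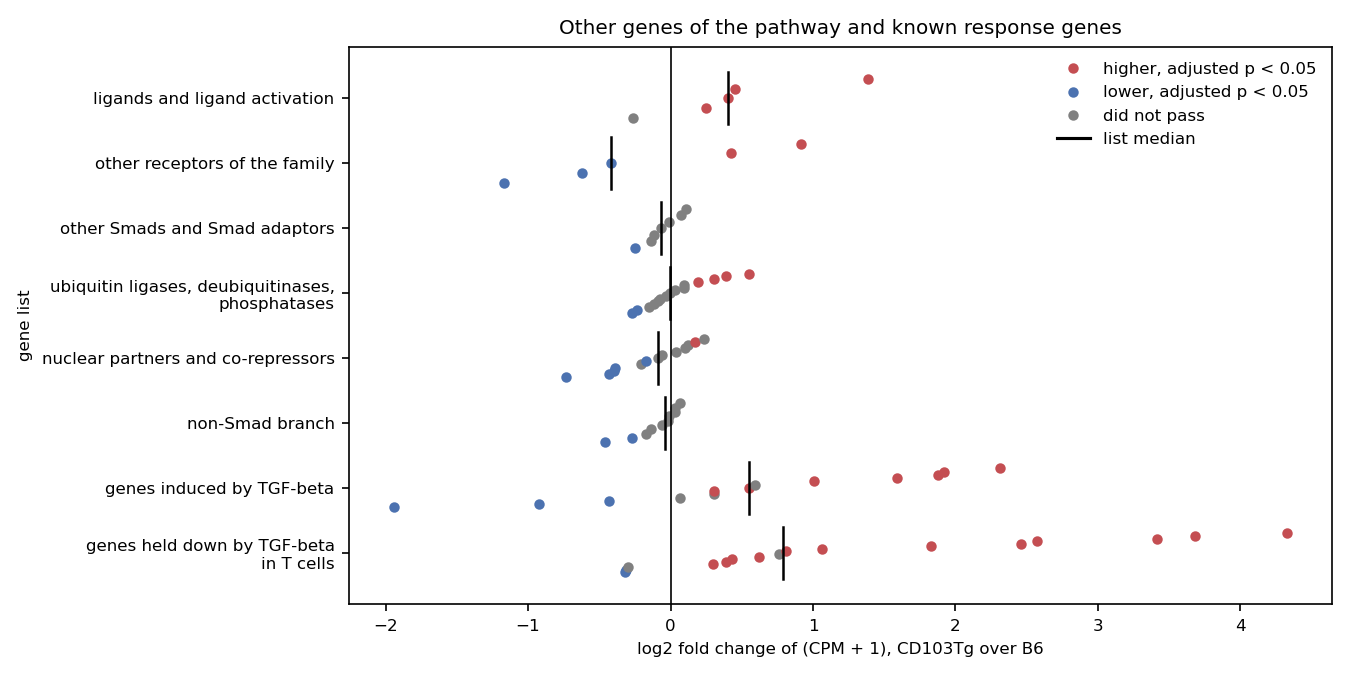
Log2 fold change of (CPM + 1), CD103Tg over B6, of each tested gene in the 6 pathway lists and the 2 lists of response genes, with 1 point per gene and a black line for the list median. The pathway lists lie mostly between -1 and 1, and the genes known to be held down by TGF-beta reach the highest values.

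Genes known from other work to respond to TGF-beta were given in 2 lists, Itgae left out. These lists too were drawn up with earlier results of these data known, so their called shares are description only. Ldlrad4, Smurf2 and Tgif1, listed as induced, were also counted in the pathway lists above. Of 13 tested genes listed as induced, 7 rose, 3 fell and 3 did not pass (median 0.55), a called share of 76.9% where all genes tested gave 31.2%. Ahr, the aryl hydrocarbon receptor gene, rose by 1.92 ± 0.14, Nt5e (CD73) by 1.00 ± 0.09 and the integrin gene Itga1 by 2.31 ± 0.23, while Gpr15, a homing receptor gene, fell by 1.94 ± 0.15. Gpr15 stood at 17.6, 17.5, 22.4 and 26.1 CPM in B6 and at 4.27, 4.31, 3.94 and 6.25 CPM in CD103Tg. Of 16 tested genes listed as held down in T cells, 12 rose, 2 fell and 2 did not pass (median 0.79), a called share of 87.5%. Gzmb, the granzyme B gene, rose by 4.33 ± 0.28, Fasl, the Fas ligand gene, by 3.41 ± 0.23, the T-box factor gene Eomes by 1.06 ± 0.08 and S1pr5 by 3.68 ± 0.29. The 2 that fell were Klf2, a factor of quiescent circulating cells (-0.32 ± 0.06), and its target S1pr1, the lymph node egress receptor gene (-0.32 ± 0.07). Genes of both lists are also known to respond to other signals.

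Markers were read for the sorted cells and for other cells that a sort could hold. Of the 6 sort and identity genes, Cd8a fell by 0.24 ± 0.05 (limma adjusted p = 0.00602) and Cd3e, Cd8b1, Cxcr3, Ly6c2 and Cd44 did not pass. Cxcr3 (adjusted p = 0.0529) passed as lower under 3 other scalings and Cd8b1 (0.0792) under 4 alternatives, among them leaving out B6 replicate 4 or CD103Tg replicate 1 (0.0489 and 0.0461). Ly6c2 passed as higher with quantile normalization (0.0302). Of 10 tested myeloid and dendritic cell markers, 5 rose and 5 did not pass, and the summed level of the 12 read went from 30.5 to 83.5 CPM in B6 and from 86.8 to 179 CPM in CD103Tg. Of 6 tested B cell and plasma cell markers, 3 rose and 2 fell, with sums over 8 genes of 829 to 921 CPM in B6 and 393 to 560 CPM in CD103Tg, most of it Ighm. Of 3 tested natural killer cell markers 3 rose (sums of 5.55 to 8.40 and 12.9 to 17.9 CPM), and of 4 gamma delta T cell markers 3 rose (16.7 to 27.2 and 46.6 to 108 CPM). The natural killer marker Ncr1 was too low to be tested and its groups overlapped (0.506 ± 0.171 CPM in B6 and 0.401 ± 0.193 CPM in CD103Tg). The 3 gamma delta markers that rose are gamma chain constant genes. The delta chain gene Trdc did not pass (0.26 ± 0.16, limma adjusted p = 0.236). Of 4 tested markers of CD4 and regulatory T cells 1 rose (Il2ra) and 1 fell (Ikzf2), and Ctla4 and Tnfrsf18 did not pass. The sums over 6 genes were 93.5 to 102 CPM in B6 and 89.9 to 120 CPM in CD103Tg, most of it Tnfrsf18. Cd40lg and Zbtb7b were too low to be tested and lay lower in every CD103Tg library than in any B6 library. Cd4 and Foxp3 were absent from the deposited table. Granulocyte markers were near 0, with sums over 3 genes of 0.0171 to 3.41 CPM in B6 and 0.134 to 6.32 CPM in CD103Tg, and of the stromal and endothelial genes only Pecam1 was read, which fell by 0.46 ± 0.08. The part of such cells in the values of the 10 genes was not tested, and in sorted bulk cells a change in the mix of cells and a change in RNA per cell cannot be told apart.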

How the data were processed

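The authors deposited 1 table of a normalized signal per gene, CPM on a TMM-scaled library size per the labels, for 8 libraries grouped by the sample titles; no source used here states its gene filter. Per the submitters' processing notes, the tools were RSEM, STAR 2.7.0f, cutadapt 1.18 and bcl2fastq 2.17, and the builds GRCm38 and mm10. All 13245 gene IDs matched GENCODE M21. Genes averaging 1 CPM or more were fitted on log2(CPM + 1) by limma-trend (limma 3.58.1, R 4.3.3), with genotype alone in the model, two-sided p-values and Benjamini-Hochberg adjustment. The pseudocount of 1 understates changes of low genes. Steps in the low values gave 50187279 to 56371476 estimated reads per library, of which 62.9% to 65.1% of the values above 0 were whole within 0.005 of a read.

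The 10 genes, lists, tests and 20 alternatives were chosen with earlier results of these data known. Named genes are the 10, Itgae, the sort markers, the 4 listed genes with the smallest p in each pathway or response list, and the 3 nearest in profile to Smad3 and Smad4. Cd247, Tgfbr3, Itgav, Itch, Trim33, Klf2, S1pr1, Bambi, Ighm and Pecam1 were named after their values were seen. So were the marker genes Ncr1, Trdc, Il2ra, Ikzf2, Ctla4, Tnfrsf18, Cd40lg and Zbtb7b. None of the genes named in this way was followed by itself through the alternatives. Alternatives changed the pseudocount (0.1 or 5), the filter (none, or 5 CPM), the scaling (equal totals, quantile, median of ratios) or the variance model (array weights, robust eBayes), used voom on the estimated reads or the replicate number as a block, or left out each library or both numbered 4. The fit was tested on simulated data. Python 3.11.15, pandas 2.3.3, numpy 2.4.6, scipy 1.17.1 and matplotlib 3.10.9 were used for the rest.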

Additional observations from a re-analysis of the deposited data

Results flagged for a closer look

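The ratio of Smad3 to Smad2 in B6 replicate 2 was 0.860, against 1.02 to 1.05 in the other 3 B6 libraries, a gap beyond Dixon's limit for 4 values. In that library Smad3 was the lowest and Smad2 the highest of the B6 group (86.1 and 100.1 CPM). The ratio in the CD103Tg libraries was 1.54 to 1.66, so the library is farther from CD103Tg than the rest of its group. B6 replicate 4 was the highest of its group by more than the same limit in Itgae (174 CPM, against 37.5 to 51.4) and in Cd247 (478 CPM, against 285 to 315). These were the 3 values beyond the limit among 34 groups of 4 values checked, and chance flags about 1 group in 20. Itgae and Cd247 were added to the check after their values were seen.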

How the results depend on the processing

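Over 20 alternatives the 5 calls among the 10 genes kept their direction and their side of the threshold, with log2 fold changes of 0.62 to 0.69 for Smad3, 0.47 to 0.57 for Pmepa1, 0.20 to 0.25 for Ski, -0.35 to -0.25 for Tgfbr2 and -0.32 to -0.27 for Smad4. None of the 10 changed sign. The count of the 10 genes called lower was 2, and 4 with array weights, with the replicate number as a block or without CD103Tg replicate 4, where Tgfbr1 and Smad7 joined; leaving out 1 library gave 2 to 4. Leaving out 1 library gave 7 to 11 pathway genes called higher and 8 to 13 called lower, with the lowest counts, 7 and 8, without CD103Tg replicate 3. The cause was not tested. Between 2771 and 3968 of all genes were called, against 3592. The median of all genes tested moved to -0.04 with quantile normalization and -0.03 with equal totals. Quantile normalization called 1741 genes higher and 1995 lower, and equal totals 1756 and 1848, against 2000 and 1592.

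The labels do not say that a replicate number marks a shared animal or day. Deviations of same-numbered libraries correlated at 0.221, 0.350, -0.0807 and 0.123 for numbers 1 to 4. Numbers 1 and 2 correlated best with their own number and numbers 3 and 4 did not, so the pairing is not established and the block is an alternative only. With the replicate block 3682 genes were called, and Tgfbr1 (limma adjusted p = 0.0287) and Smad7 (0.0452) passed as lower. Of 45 other named genes that were followed, 32 kept their direction and their side of the threshold under all 20 alternatives. Some of these, such as Cd3e, Strap and Tab1, never passed. Another 2 (Acvr1b and Bmp7) kept theirs under the 19 that tested them. Under some alternatives 6 lost a call and 4 gained one. Cd44, which did not pass, changed sign without CD103Tg replicate 1 (-0.0123) and was at 0.11 at most on leaving out 1 library.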

Other observations

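Profiles over the 8 libraries were compared by the root mean square difference of log2(CPM + 1) values, each gene centred on its own mean, over 10068 other tested genes. The genes nearest to Smad3 were Dip2a (0.0689), Lgals3bp (0.0705), which encodes a secreted galectin-binding glycoprotein, and Chsy1 (0.0745), a chondroitin synthase gene, where the median gene differed by 0.364. Lgals3bp went from 287 ± 14.8 to 477 ± 5.10 CPM (mean ± SD, n = 4 each). The genes nearest to Smad4 were Lrig2 (0.0284), the cytoskeletal adducin gene Add1 (0.0317) and Nle1 (0.0347), against a median of 0.200. Add1 went from 577 ± 24.2 to 475 ± 10.1 CPM. Nle1 lost its call without B6 replicate 1 or CD103Tg replicate 3 (limma adjusted p = 0.0516 and 0.0562). The profiles include the difference between the groups.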
